A study of Mus musculus with 45 samples.

Results

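Cholesterol and fatty acid synthesis was followed through 30 genes of mouse neuroepithelial organoids, chosen by gene symbol from the 54532 genes of the count table. They were arranged by role into 7 genes of the mevalonate arm, 11 of the squalene and sterol arm, 6 of control and sterol transport, and 6 of fatty acid synthesis. All 30 were found in the table, and all 30 passed the filter on low counts in each comparison. The rule names gene symbols and uses no measured value.

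Both pathways start from cytosolic acetyl-CoA. The mevalonate arm builds isoprenoid units, which the squalene and sterol arm joins, closes into a ring system and trims to cholesterol, whereas fatty acid synthesis extends an acyl chain and then desaturates it. Transcription of both is driven by the SREBP factors, which the escort protein SCAP carries out of the endoplasmic reticulum when sterols are low and which the INSIG proteins hold back when sterols are high. In embryonic neural tissue cholesterol is made locally and serves in membranes and in Hedgehog signalling.

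Organoids were grown from R1 cells, a wild-type mouse embryonic stem cell line, by clonal growth in Matrigel and N2B27 medium, and RNA was taken from pools of organoids. The 15 cell populations were untreated day 2 organoids, and organoids kept without retinoic acid (RA) or with 250 nM all-trans RA from day 2 and collected 8, 18, 30, 42, 54, 66 or 78 h later. Each population had 3 libraries, described as biological replicates, which gave 45 libraries of 17298632 to 39688686 counts. The labels name this line for all of them, and no tissue or strain other than R1 was compared.

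Rarb, a receptor gene that RA induces, was higher in every RA-treated than in every untreated library at all 7 time points, with group means of 0.782 CPM and 44.4 CPM at 18 h. CPM is the count scaled to a common library size by normalization over all 45 libraries. The 5 neural progenitor markers Sox1, Sox2, Pax6, Nes and Sox3 each had a mean of at least 1 CPM in all 15 populations, and so did the 4 pluripotency markers. Genes of the Y chromosome averaged 1.22 to 3.65 CPM in 6 libraries, namely RA 8 h replicate 3, the 3 untreated 30 h libraries and RA 30 h replicates 1 and 3, and 22.9 to 89.5 CPM in the other 39. Whether these 6 libraries differ from the rest in line or clone was not tested. The library numbers fall into an earlier and a later series. RA 30 h replicates 2 and 3, untreated 54 h replicate 3, day 2 replicate 3 and all libraries of 66 h and 78 h are of the later series.

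The synthesis genes were among the measurable genes in every library, with at least 292 counts each. Per kilobase of exon and averaged over the 45 libraries, the highest level was that of Scd2, a stearoyl-CoA desaturase, at 316 CPM per kb. It was followed by Hmgcs1, which makes HMG-CoA for the mevalonate arm, at 198 CPM per kb, by the citrate lyase Acly at 159 CPM per kb and by the fatty acid synthase Fasn at 116 CPM per kb. The lowest levels per kilobase were those of the sterol reductase Tm7sf2, at 6.04, and of the farnesyl diphosphate synthase Fdps, at 4.46. Fdps shares 1124 exon bases with another annotated gene on the same strand, and how reads that fit both were counted is not given, so that its counts are uncertain.

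The main difference between the arms lay at 42 h and 54 h. At 42 h 20 of the 30 genes were lower with RA and 1 was higher, and at 54 h 21 were lower and 1 was higher, at an adjusted p below 0.01. Among all genes tested, 17% were lower and 20.5% higher at 42 h, and 17.9% were lower and 20.8% higher at 54 h. All RA-treated libraries lay below all untreated libraries for 20 of the 30 genes at 42 h and above them for 1, beside 26.8% and 32% of all genes tested. The 19 genes lower at both times took in 6 of the 7 mevalonate genes and 8 of the 11 squalene and sterol genes. Under every alternative scaling, filter and model and without any 1 library, 16 of the lower genes kept their call at 42 h and 15 at 54 h, and so did Scap at both times. The calls lost in at least 1 of these were those of Mvk, Idi1, Hsd17b7 and Scd1 at 42 h and of Mvd, Nsdhl, Hsd17b7, Dhcr7, Insig2 and Scd1 at 54 h. Adjusted p-values here and below are from edgeR's quasi-likelihood test, fitted on the 6 libraries of a time point and adjusted over all genes tested by the Benjamini-Hochberg method. The differences were modest. The median log2 fold change over the 30 genes was -0.35 at 42 h and -0.45 at 54 h, beside 0.01 and 0.0018 over all genes tested, and the largest fall was 0.76 on the log2 scale. No synthesis gene passed a 2-fold limit with RA at any time, whereas other genes did. Of all genes tested, 0.537%, 2.76%, 2.48%, 4.96%, 5.99%, 4.44% and 4.03% were lower with RA by more than 2-fold at the 7 times from 8 h to 78 h, and 1.26%, 8.17%, 5.98%, 7.49%, 7.17%, 7.06% and 7.66% were higher. RNA was taken from whole organoids, so that fewer cells of a type and less RNA per cell cannot be told apart.

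**Figure D1:**
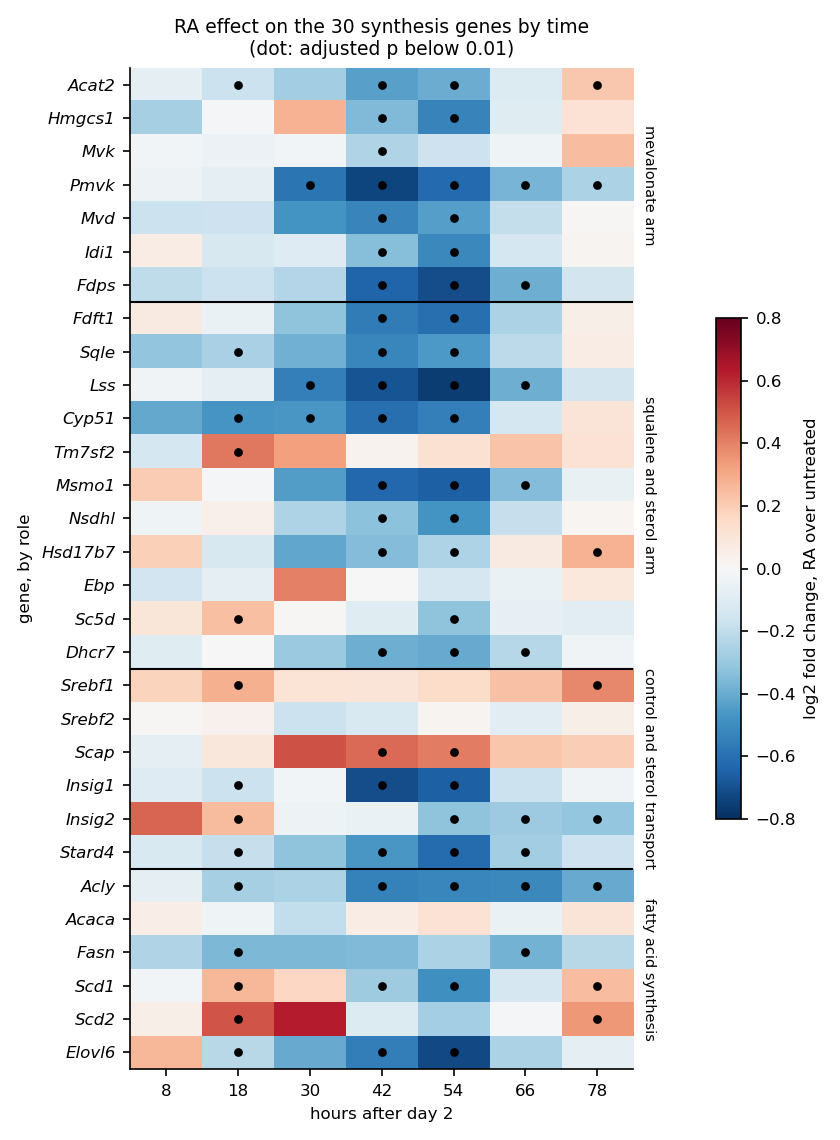
Log2 fold change of RA-treated over untreated libraries (color) for the 30 genes (rows, parted by role) at 7 times after day 2 (columns), with a dot where the adjusted p was below 0.01. The dots crowd in the columns of 42 h and 54 h, where 20 and 21 genes were lower, and thin out at 66 h and 78 h.

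Every gene of the mevalonate arm was lower with RA at 42 h, and all but Mvk were lower at 54 h. Pmvk, the phosphomevalonate kinase (chr3:89454541-89469013), had 72.1, 72.6 and 72.0 CPM in the untreated and 44.0, 44.2 and 43.0 CPM in the RA-treated libraries of 42 h. The replicates of each group lay close together and the groups far apart, with a log2 fold change of -0.73 ± 0.05 (SE, n = 3 and 3, adjusted p = 8.6e-07 in edgeR). At 54 h Pmvk had 63.7, 67.4 and 77.3 CPM without and 41.4, 47.0 and 48.4 CPM with RA, again without overlap. Hmgcs1 (chr13:119690379-119708260), at the entry of the arm, had 1043, 1184 and 1195 CPM in the untreated and 714, 809 and 865 CPM in the RA-treated libraries of 54 h. Its log2 fold change was -0.35 ± 0.07 at 42 h and -0.54 ± 0.08 at 54 h, and the change between these times was not tested. Fdps, which makes the farnesyl diphosphate that sterols and other isoprenoids share, had 20.9, 21.7 and 23.2 CPM without and 12.2, 13.4 and 15.2 CPM with RA at 54 h (log2 fold change -0.71 ± 0.09). Acat2, the thiolase at the start of the arm, Mvd, Idi1 and Mvk complete it, and their called log2 fold changes at the 2 times lay between -0.53 and -0.24. Acat2 has close copies in the genome, among them Acat3, whose mean stayed at or below 1.07 CPM in every population.

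Of the squalene and sterol arm, 8 of 11 genes were lower at 42 h and 9 at 54 h. Lss, the lanosterol synthase that closes the ring system (chr10:76531588-76557138), gave the largest fall of all 30 genes. At 54 h it had 219, 246 and 243 CPM in the untreated and 121, 145 and 157 CPM in the RA-treated libraries, with a log2 fold change of -0.76 ± 0.09 (adjusted p = 3e-05 in edgeR). The lowest untreated library lay well above the highest RA-treated library. Msmo1, a sterol methyl oxidase (chr8:64718139-64733792), had 302, 297 and 302 CPM without and 184, 202 and 200 CPM with RA at 42 h. The fall was 0.63 ± 0.05 on the log2 scale at 42 h and 0.66 ± 0.08 at 54 h, and the libraries did not overlap at either time. Cyp51, the lanosterol demethylase (chr5:4081145-4104746), had 264, 284 and 299 CPM without and 175, 195 and 215 CPM with RA at 54 h. Its exons overlap Akap9 by 166 bases, and those of Fdft1, the squalene synthase, overlap Ctsb by 774 bases on the opposite strand. Fdft1 and the squalene epoxidase Sqle fell by 0.60 ± 0.10 and 0.46 ± 0.07 on the log2 scale at 54 h, and Nsdhl, Hsd17b7 and Dhcr7 were also lower at both times. The genes that did not follow were Tm7sf2, the sterol isomerase Ebp and, at 42 h, the desaturase Sc5d. Ebp had 20.3 to 25.2 CPM without and 19.7 to 23.9 CPM with RA at 54 h, which overlap. The 18 genes of both arms summed to 2977, 3297 and 3384 CPM in the untreated and 2035, 2305 and 2490 CPM in the RA-treated libraries of 54 h.

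**Figure D2:**
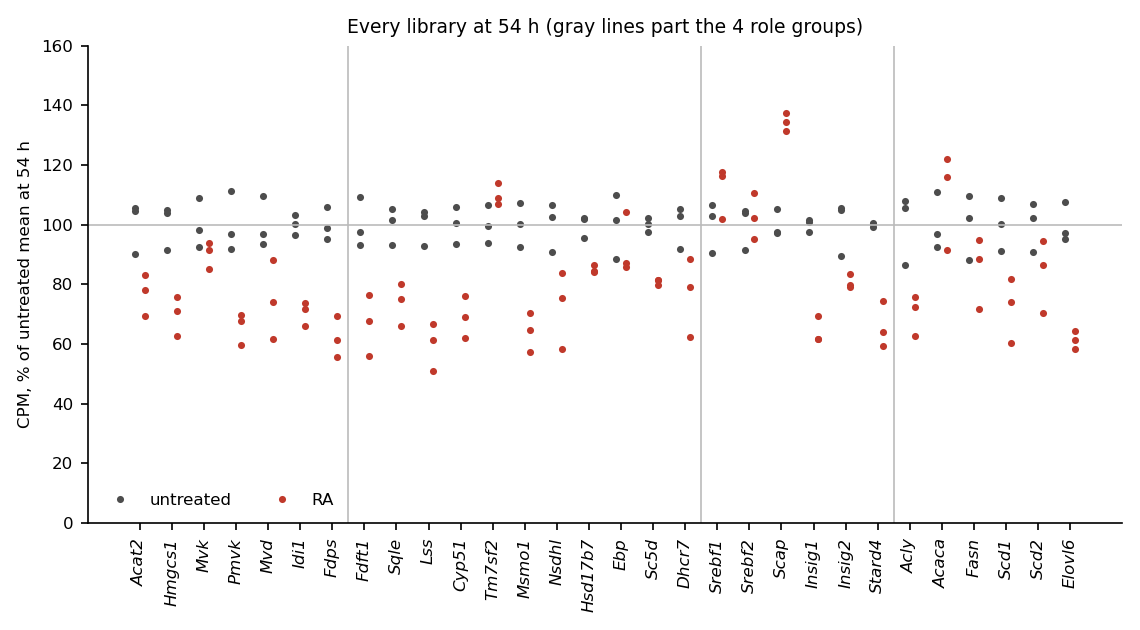
CPM of each gene in the 3 untreated (gray) and 3 RA-treated (red) libraries of 54 h, as a percentage of the untreated mean. Red points lie below all gray points for 21 of the 30 genes, beside 27.7% of all genes tested, and above all gray points for 2, Tm7sf2 and Scap, beside 32%.

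The genes that control the pathways did not share 1 direction. Insig1, itself an SREBP target whose product retains SCAP (chr5:28071363-28078662), had 123, 133 and 136 CPM without and 76.6, 82.7 and 82.2 CPM with RA at 42 h. The groups did not overlap, and the log2 fold change was -0.71 ± 0.06 at 42 h (adjusted p = 4e-06 in edgeR) and -0.66 ± 0.06 at 54 h. Stard4, a carrier of cholesterol between membranes, had 157, 157 and 155 CPM without and 93.0, 100 and 116 CPM with RA at 54 h, a log2 fold change of -0.62 ± 0.07. Scap went the other way, from 54.4, 66.5 and 62.0 CPM without RA to 90.2, 85.3 and 76.8 CPM with RA at 42 h. It was the gene called higher at both times, with log2 fold changes of 0.45 ± 0.08 and 0.41 ± 0.06 (adjusted p = 0.00077 and 0.00014 in edgeR), and every RA-treated library stood above every untreated library. Srebf2, the SREBP gene that mainly drives sterol enzymes, had 301, 341 and 343 CPM without and 313, 336 and 364 CPM with RA at 54 h. Those groups overlap, and Srebf2 was not called at any of the 7 times. Srebf1, which mainly drives fatty acid enzymes, had 81.9 to 93.0 CPM without and 85.1 to 102 CPM with RA at 42 h and was not called there or at 54 h. Insig2 was lower at 54 h, with 24.0, 25.3 and 24.1 CPM with RA beside 32.0, 27 and 31.7 CPM without, and not called at 42 h.

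In fatty acid synthesis 3 of 6 genes were lower at both 42 h and 54 h. Acly, which makes cytosolic acetyl-CoA from citrate (chr11:100476353-100528000), had 812, 1014 and 990 CPM without and 589, 678 and 713 CPM with RA at 54 h. Untreated replicate 1 was the lowest of its group and still lay above all RA-treated libraries, and the log2 fold change was -0.52 ± 0.09. Elovl6, which elongates palmitate (chr3:129532355-129638495), had 244, 221 and 217 CPM without and 133, 140 and 146 CPM with RA at 54 h. This was the largest fall of the group, at 0.72 ± 0.07 on the log2 scale (adjusted p = 6.5e-06 in edgeR). Scd1 fell by 0.28 ± 0.06 at 42 h and by 0.49 ± 0.10 at 54 h. Acaca, the acetyl-CoA carboxylase that commits carbon to fatty acids, had 125, 150 and 131 CPM without and 124, 157 and 165 CPM with RA at 54 h, which overlap, and was called at no time. Fasn, with 1302 to 1621 CPM without and 1061 to 1400 CPM with RA at 54 h, and Scd2, with 1778 to 2089 and 1376 to 1851 CPM, were not called at 42 h or 54 h.

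Markers of other cell types and states moved at the same times. The 4 pluripotency markers summed to 713 to 803 CPM in the untreated and 214 to 296 CPM in the RA-treated libraries of 42 h, and to 649 to 719 and 109 to 217 CPM at 54 h. Pou5f1 carried this fall, with 530.0 to 600.2 CPM without and 56.5 to 79.1 CPM with RA at 42 h, where the other 3 were not called, and Nanog was also lower at 54 h. The 5 neural progenitor markers summed to 483 to 566 CPM without and 755 to 857 CPM with RA at 42 h, and to 562 to 687 and 827 to 918 CPM at 54 h. Nes, Pax6 and Sox1 were higher at both times, whereas Sox2 was called at neither. Sox3 was lower at 42 h, with a log2 fold change of -0.54, and not called at 54 h. Of 5 endoderm markers, 4 had a mean of at least 1 CPM with RA and 1 without at both times, with sums of 13.1 to 17.8 CPM and 2.43 to 3.89 CPM, and Cer1 stayed under 1 CPM in both. Of 4 mesoderm markers, Tbx6 and Mesp1 stayed under 1 CPM in both arms at both times, and the sums were 28.9 to 33.4 CPM with and 3.89 to 7.0 CPM without RA at 42 h and 16.3 to 19.4 and 7.61 to 11.1 CPM at 54 h. The rise was that of Meox1, with log2 fold changes of 5.40 and 3.60, while T fell by 2.39 and 3.25 on the log2 scale. The 5 neuron markers summed to 57.5 to 64.1 CPM with and 81.3 to 86.7 CPM without RA at 42 h, and to 80.4 to 87.0 and 75.6 to 82.1 CPM at 54 h, and the 5 epithelial markers to 182 to 206 and 240 to 278 CPM at 42 h and to 275 to 283 and 222 to 228 CPM at 54 h. Elavl3 and Tubb3 carried the fall of the neuron sum at 42 h, whereas Neurog2 was higher at both times, with log2 fold changes of 2.22 and 3.45. Among the epithelial markers Epcam fell by 1.59 on the log2 scale at 42 h and 1.61 at 54 h, whereas Krt8 rose by 1.85 and 2.46 and Krt18 by 1.49 and 2.44. The part of these shifts in the results for the synthesis genes was not tested. All 6 libraries of 42 h are of the earlier series, and without the untreated 54 h library of the later series 16 genes were lower at 54 h.

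Of the 19 genes lower at both 42 h and 54 h, the upstream sequence of 5 is shown, taken from RefSeq on GRCm38.p6. Each run is the 250 bases before the start annotated in RefSeq, 5′ to 3′ on the strand of the gene, from the first window listed. These starts differ from some of the gene limits given above. The runs of Lss and Insig1 reach past the start of the gene as given there, and most of the Msmo1 run lies inside that gene. Capitals mark CCAAT on either strand, which NF-Y binds, TCACCCCAC in Hmgcs1, letters of the sterol regulatory element, and CACGTG in Insig1, letters of an E-box. The regions are chr13:119690101-119690350 (plus strand) for Hmgcs1, chr8:122443423-122443672 (minus) for Mvd, chr10:76531355-76531604 (plus) for Lss, chr8:64733579-64733828 (minus) for Msmo1 and chr5:28071162-28071411 (plus) for Insig1.
Hmgcs1: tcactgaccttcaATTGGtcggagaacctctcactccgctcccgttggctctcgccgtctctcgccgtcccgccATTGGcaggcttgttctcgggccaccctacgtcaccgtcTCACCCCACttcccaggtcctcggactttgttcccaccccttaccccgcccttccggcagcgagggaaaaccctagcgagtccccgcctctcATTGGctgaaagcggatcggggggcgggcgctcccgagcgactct
Mvd: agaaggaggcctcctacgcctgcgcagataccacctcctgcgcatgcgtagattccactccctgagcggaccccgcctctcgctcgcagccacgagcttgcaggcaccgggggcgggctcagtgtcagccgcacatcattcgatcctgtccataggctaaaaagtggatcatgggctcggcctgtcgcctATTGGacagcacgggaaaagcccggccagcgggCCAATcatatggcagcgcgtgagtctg
Lss: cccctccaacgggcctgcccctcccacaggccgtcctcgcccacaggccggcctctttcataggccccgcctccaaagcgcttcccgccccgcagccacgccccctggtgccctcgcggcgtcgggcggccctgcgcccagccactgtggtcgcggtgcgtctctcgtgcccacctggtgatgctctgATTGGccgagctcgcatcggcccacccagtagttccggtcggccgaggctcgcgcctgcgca
Msmo1: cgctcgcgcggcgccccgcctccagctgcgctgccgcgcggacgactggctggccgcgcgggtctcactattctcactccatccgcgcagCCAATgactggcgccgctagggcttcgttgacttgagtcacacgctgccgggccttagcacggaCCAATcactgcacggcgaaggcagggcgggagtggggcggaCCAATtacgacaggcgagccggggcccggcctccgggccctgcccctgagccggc
Insig1: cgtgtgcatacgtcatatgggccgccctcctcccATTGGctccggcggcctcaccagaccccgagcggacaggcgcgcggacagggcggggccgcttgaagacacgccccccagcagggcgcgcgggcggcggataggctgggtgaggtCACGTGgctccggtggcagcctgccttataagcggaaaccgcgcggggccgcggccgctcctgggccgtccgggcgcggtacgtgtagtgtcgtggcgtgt
RefSeq gave 32 promoter windows, 250 bases before to 50 after the start, for 24 of the 30 genes, beside 32851 windows for 27025 genes in all. A gene counted as holding a motif if any of its windows did, so that genes with more windows had more room for a match. For 26 of the 32 windows the bases after the start stood in a transcript of the gene. CCAAT stood in the windows of 20 of these 24 genes, or 83.3%, beside 41.1% of all genes with a window, on both strands counted together. Those 20 include Ebp, Srebf1, Srebf2, Tm7sf2 and Fasn, which were not called at 42 h or 54 h. All genes with a window include genes not expressed here, and shares over expressed genes alone were not computed for any motif. GGGCGG, the letters that Sp1 binds, also stood in 20 of 24, beside 38.2% of all genes, and the 2 sets of genes were not the same. Pmvk and Fasn held CCAAT without GGGCGG, and Acat2 and Scap held GGGCGG without CCAAT. The E-box letters CACGTG stood in 5 of the 24, namely Dhcr7, Hsd17b7, Insig1, Sc5d and Scap, or 20.8% beside 8.09%. Letters of the sterol regulatory element, TCACNCCAC, stood in Hmgcs1 alone, as the form TCACCCCAC, beside 1.44% of all genes. Looser forms of this element were not searched, so that its absence elsewhere cannot be read from this count. Fdft1, Fdps, Sqle, Stard4, Scd1 and Scd2 had no window. The direct repeat of the RA receptor spaced by 5 bases, searched as exact letters, stood in none, beside 0.0111% of all genes. It is too rare for its absence in 24 genes to be read as a result. These counts describe letters in a short window and say nothing about binding.

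Fewer genes were called at the earlier time points. At 8 h edgeR called 0 of the 30 genes, beside 1.3% lower and 1.84% higher of all genes, and DESeq2 also called 0. At an unadjusted p below 0.05, 5 were lower and 2 higher, and the share of all genes at that threshold was not computed. RA 8 h replicate 3, the only 8 h library with low Y chromosome transcripts, differed from its group. Msmo1 had 171, 167 and 323 CPM in the 3 RA-treated libraries and 195, 187 and 197 CPM in the untreated libraries. The part of that library's difference in the absence of calls was not tested. Without that library 3 genes were lower at 8 h, in a fit whose share of all genes was not computed. At 18 h 8 genes were lower and 6 higher, beside 20.3% lower and 22.3% higher of all genes. The count of lower genes at 18 h was 2 without RA replicate 3, 3 without untreated replicate 1 or 3 or RA replicate 2, and 4 without RA replicate 1, and that of higher genes was 3 without RA replicate 3. Scaling by library totals in place of TMM, which raised the median of all genes by 0.12 on the log2 scale, left 1 gene lower and 7 higher at 18 h. The 3 calls kept under every alternative but the 2-fold limit were those of Cyp51, Tm7sf2 and Scd2.

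The 6 genes higher at 18 h included both desaturases. Scd2 had 1417, 1228 and 1428 CPM without and 1816, 1972 and 1933 CPM with RA, with no overlap and a log2 fold change of 0.50 ± 0.06 (adjusted p = 1e-05 in edgeR). Scd1 rose by 0.27 ± 0.05 on the log2 scale. Tm7sf2 had 20.8, 21.3 and 21.6 CPM without and 28.2, 27.9 and 28.7 CPM with RA, again without overlap, and its exons share 532 bases with Vps51 on the same strand. Srebf1, Insig2 and Sc5d complete the genes that were higher, with log2 fold changes of 0.28, 0.26 and 0.24. Cyp51 fell most at 18 h, from 245, 240 and 254 CPM to 179, 182 and 169 CPM, a log2 fold change of -0.47 ± 0.05 (adjusted p = 4.3e-06 in edgeR). The other 7 lower genes were Acat2, Sqle, Insig1, Stard4, Acly, Fasn and Elovl6, with falls of 0.17 to 0.36 on the log2 scale.

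At 30 h 3 genes were lower with RA, Pmvk, Lss and Cyp51, and 0 were higher in edgeR, beside 5.92% and 8.21% of all genes. At an unadjusted p below 0.05, 14 genes were lower and 4 higher, and DESeq2 called 6 lower and 2 higher. Shares of all genes were not computed for either of these. Lss had 338, 350 and 333 CPM without and 238, 226 and 234 CPM with RA, which are far apart. RA 30 h replicate 2 stood apart from the other RA-treated libraries in several genes, with 2298 CPM of Scd2 beside 3530 and 3280, and 150 CPM of Elovl6 beside 235 and 261. Without it 16 genes were lower and 4 higher at 30 h, and the share of all genes in that fit was not computed. Without any 1 of the untreated libraries or RA replicate 1, 0 were lower, and without RA replicate 3, 1 was lower. With library totals 1 gene was lower and 2 were higher at 30 h, where that scaling raised the median of all genes by 0.14 on the log2 scale. RA 30 h replicate 2 is also the only 30 h library with Y chromosome transcripts in the higher range, and the series of libraries is partly confounded with RA at this time.

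Fewer genes were called after 54 h. At 66 h 9 genes were lower and 0 higher in edgeR, beside 15.6% lower and 17.8% higher of all genes. Another 2 counts have no share of all genes beside them: 17 lower and 3 higher at an unadjusted p below 0.05, and 12 lower and 1 higher in DESeq2. With the replicate number as a block, which the correlations of the libraries allowed at 66 h, 13 genes were lower and 3 higher. Acly fell most, from 930, 1013 and 1053 CPM to 671, 703 and 707 CPM, a log2 fold change of -0.51 ± 0.05 (adjusted p = 2.4e-05 in edgeR). Lss, Fdps, Pmvk, Msmo1, Dhcr7, Stard4 and Acly were the 7 genes lower at 42 h, 54 h and 66 h alike. Fasn, with 1304, 1461 and 1538 CPM without and 1000, 1152 and 1130 CPM with RA, was lower at 66 h as at 18 h. Acly, Lss and Pmvk kept their calls at 66 h under the same alternatives, and without RA replicate 1, 2 genes were higher. With library totals 8 were lower and 2 higher at 66 h.

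At 78 h 3 genes were lower and 5 higher, beside 14.2% lower and 19.2% higher of all genes. Pmvk and Acly were lower at all 4 times from 42 h on. Acly had 850, 1015 and 1067 CPM without and 690, 763 and 736 CPM with RA at 78 h, a log2 fold change of -0.40 ± 0.07. Insig2 was the third lower gene, with 27.9, 30.4 and 31.5 CPM without and 25.6, 24.8 and 21.2 CPM with RA. The higher genes were Srebf1, Scd2, Hsd17b7, Scd1 and Acat2. Srebf1 had 93.9, 95.8 and 95.4 CPM without and 115, 124 and 129 CPM with RA, a log2 fold change of 0.38 ± 0.05 (adjusted p = 0.00017 in edgeR) and no overlap. Hmgcs1 had 788, 931 and 986 CPM without and 987, 971 and 935 CPM with RA at this time, so that the groups overlapped again. Acly and Srebf1 kept their calls at 78 h under the same alternatives. The count of higher genes was 2 without untreated replicate 1 or 2 or RA replicate 2 and 3 without untreated replicate 3, and that of lower genes was 1 without untreated replicate 2 or 3 or RA replicate 2. With library totals 2 were lower and 7 higher at 78 h, and with the replicate number as a block 5 were lower and 7 higher. Over all 7 times, 77 of 210 pairs of gene and time were called, 64 lower and 13 higher, beside 13.2% lower and 15.9% higher of all pairs tested. Acat2, Hsd17b7, Sc5d, Insig2 and Scd1, or 5 of the 30 genes, were called in both directions at different times, beside 6.23% of all genes tested at every time.

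**Figure D3:**
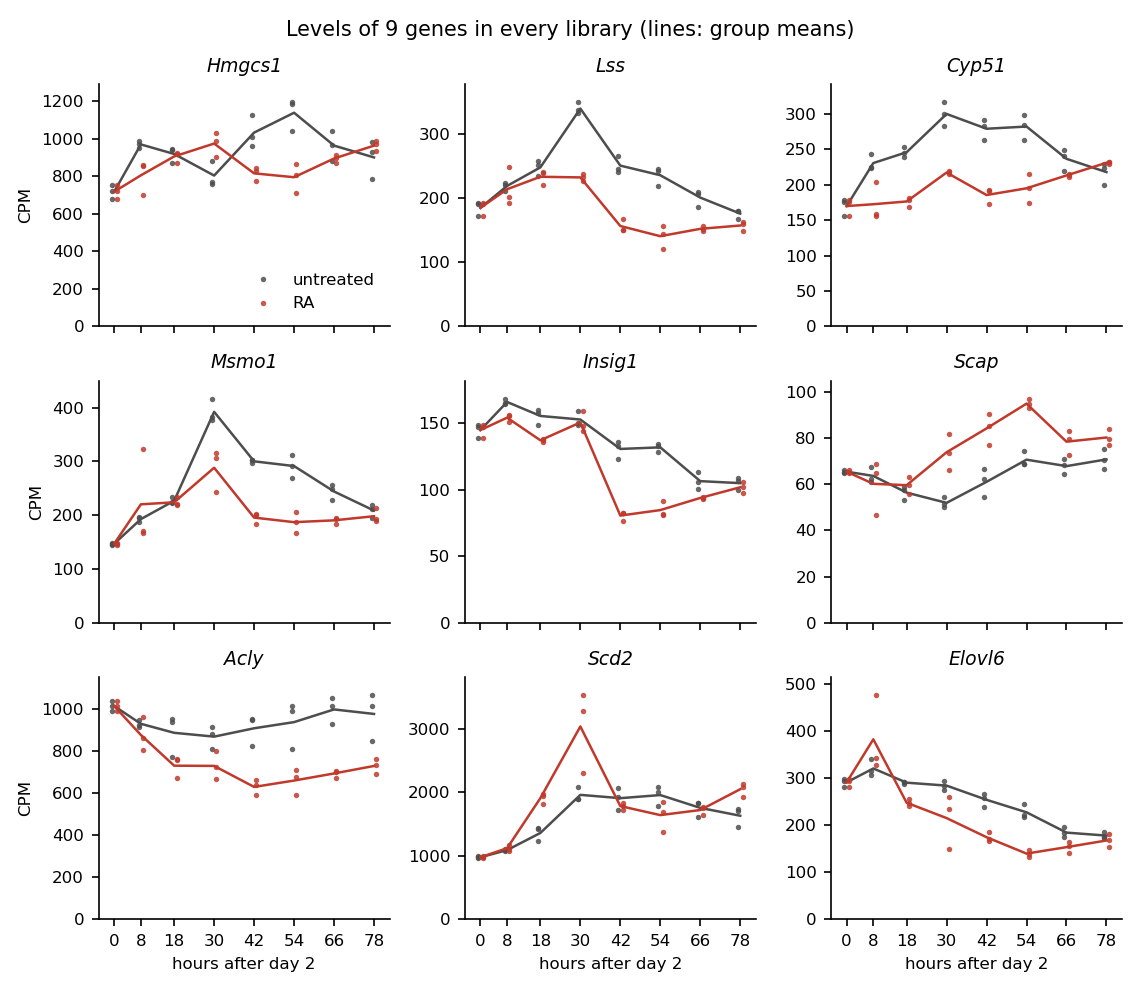
CPM of 9 genes in every library (points) with group means (lines), without RA in gray and with RA in red, against hours after day 2, where the 3 day 2 libraries are drawn for both arms. For Insig1 the lines lie furthest apart at 42 h and 54 h, and for Lss and Msmo1 from 30 h to 54 h. Msmo1 was not called at 30 h. The lines of all 3 genes are closer again at 78 h, where the libraries of Lss still do not overlap. For Acly the red line stays below the gray one.

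Whether the effect of RA on a gene differed over time was tested as an interaction. It differed among the 7 times for 17 of 30 genes, beside 33.2% of all genes tested, and for 22 genes when 30 h was left out. Leaving out RA 30 h replicate 2 alone gave 25, and shares of all genes were not computed for these reruns. Between 18 h and 54 h it differed for 14 genes, beside 23.3% of all genes, and between 54 h and 78 h for 15 genes, beside 6.84%, in 2 comparisons chosen after the data were seen. All 15 changed upward from 54 h to 78 h, by 0.46 to 0.74 on the log2 scale. Between 18 h and 78 h it differed for 7 genes, beside 27.9% of all genes. All libraries of 78 h are of the later series and those of 18 h of the earlier, so that series and time cannot be told apart in that test. At 54 h untreated replicate 3 alone is of the later series, so that series and time also nearly coincide between 54 h and 78 h.

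Against day 2, most of the sterol enzymes were higher at 18 h in both arms. At 18 h 19 of the 30 genes were higher and 1 lower than at day 2 without RA, and 14 were higher and 3 lower with RA. The lower gene without RA was Scap, whose call was lost without any 1 of the 6 libraries. Among all genes, 14.6% were higher and 14.1% lower without RA, and 30% higher and 28.8% lower with RA. Of the 18 genes of both arms of sterol synthesis, 15 were higher without RA and 10 with RA. Sc5d rose most in the untreated organoids, from 33.9, 34.3 and 33.1 CPM at day 2 to 57.9, 57.2 and 60.3 CPM at 18 h. The median log2 fold change of the 18 genes was 0.39 without and 0.23 with RA, beside 0.0053 and 0.02 over all genes tested. Both comparisons use the same day 2 libraries. With library totals, which raised the median of all genes with RA by 0.20 on the log2 scale, 20 genes were higher and 1 lower with RA at 18 h.

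At 78 h the shares of synthesis genes that differed from day 2 were near those of all genes. Without RA 12 were higher and 7 lower, beside 36.2% and 33.3% of all genes, and with RA 13 were higher and 9 lower, beside 36.8% and 33.1%. With library totals 15 were higher and 5 lower without RA, and 16 higher and 5 lower with RA, and the medians of all genes rose by 0.13 and 0.16 on the log2 scale. Sc5d was more than 2-fold above day 2 in both arms at 78 h, with log2 fold changes of 1.21 ± 0.06 without and 1.11 ± 0.06 with RA, and with RA at 18 h, at 1.01 ± 0.06. Scd2 passed 2-fold with RA at 78 h, from 976, 987 and 961 CPM to 1930, 2078 and 2133 CPM, a log2 fold change of 1.07 ± 0.05 (adjusted p = 1.5e-09 in edgeR). No synthesis gene was more than 2-fold higher in untreated organoids at 18 h or more than 2-fold lower than day 2 in any of the 4 comparisons. Of all genes, 3.2% were higher and 1.35% lower by that much without RA at 18 h, 14.5% and 5.71% with RA at 18 h, 20.3% and 13.6% without RA at 78 h, and 22.9% and 14.5% with RA at 78 h. Elovl6 fell furthest in both arms at 78 h, by 0.71 ± 0.05 without and 0.80 ± 0.06 with RA on the log2 scale. Idi1, Fdft1, Ebp and Insig1 were also lower than at day 2 in both arms.

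**Figure D4:**
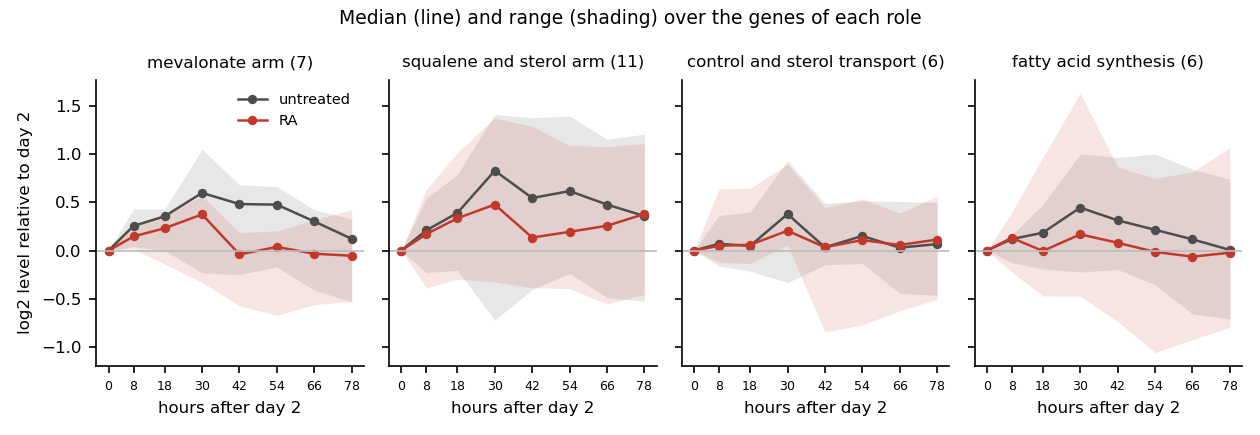
Median over the genes of each role (line) and range from the lowest to the highest gene (shading) of the log2 ratio of the group mean CPM to day 2, without RA in gray and with RA in red. In the mevalonate arm the medians at 54 h are 0.48 without and 0.04 with RA, and in the squalene and sterol arm 0.62 and 0.19.

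Between these ends, the group mean of 22 of the 30 genes was highest at 30 h in the untreated organoids, and that of 17 was highest at 30 h with RA, beside 15.7% and 12.7% of all genes tested. The 18 sterol genes summed to 3519, 3327 and 3238 CPM in the untreated 30 h libraries, beside 2189, 2222 and 2102 CPM at day 2. These 3 untreated libraries are among the 6 with low Y chromosome transcripts, and no untreated library of another time is. Time and that difference therefore cannot be told apart in the untreated peak. RA 30 h replicates 1 and 3 are also among the 6, and replicate 2 is not. Their sums were 3053 and 2992 CPM, and that of replicate 2 was 2834 CPM. The part of that difference in the peak with RA was not tested. Hmgcs1 was not among these genes in the untreated organoids, with 881, 773 and 761 CPM in the 30 h libraries and 872 to 947 CPM in those of 18 h, which overlap.

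Genes next to the pathway were counted by 6 further lists of 59 genes, of which 56 were tested. At 42 h 14 of these were higher and 16 lower with RA, and at 54 h 11 were higher and 15 lower, beside 20.5% higher and 17% lower of all genes at 42 h and 20.8% and 17.9% at 54 h. Of 6 genes that supply acetyl-CoA and NADPH, 4 were lower and 1 higher at 42 h, and 3 lower and 1 higher at 54 h. Of 10 genes of SREBP cleavage and sterol-regulated turnover, 5 were higher at 42 h and 3 at 54 h, and 0 were lower in edgeR, also at an unadjusted p below 0.05. Of 10 genes of the other isoprenoid branch, which serves prenylation, ubiquinone and dolichol, 4 were lower and 1 was higher at each of these times. Of 17 genes of fatty acid elongation, desaturation and activation, 5 were lower and 4 higher at each time. Of 9 genes of sterol export, esterification and transport, 2 were lower and 2 higher at each time. Of the 4 paralogs tested, 1 was lower at each time and 1 was higher at 42 h.

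Of these neighbouring genes, 4 passed the rule for naming. Abcg1, an exporter of cholesterol, had 38.1, 31.9 and 38.2 CPM without and 12.6, 15.6 and 16.4 CPM with RA at 18 h, with no overlap and a log2 fold change of -1.27 ± 0.10 (adjusted p = 2.6e-07 in edgeR). Its mean had been 44.6 CPM at day 2. Mylip, a ubiquitin ligase gene that LXR factors induce, had 4.23, 3.92 and 3.89 CPM without and 7.86, 9.71 and 8.64 CPM with RA at 66 h, a log2 fold change of 1.13 ± 0.12. The groups did not overlap. Fads3, of the fatty acid desaturase family, rose by 1.81 ± 0.33 at 30 h, where RA replicate 2 had 9.69 CPM beside 5.19 and 4.84 CPM in the other RA-treated libraries and 1.63 to 2.26 CPM without RA. Scd3, a close relative of Scd1 and Scd2 that can share reads with them, had 0.967, 0.556 and 0.973 CPM without and 1.75, 2.35 and 2.04 CPM with RA at 66 h.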

How the data were processed

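RNA sequencing libraries were made from poly(A) RNA with a directional kit. The authors deposited 1 table of raw read counts per gene for the 45 libraries, and each of its columns was matched to a library by name. Per the labels and the study's methods, reads were trimmed with Trim Galore 0.5.0, cleared of abundant sequences with Bowtie2 2.3.4.1, aligned to GRCm38 with STAR and counted with featureCounts of Subread 1.6.2. The strand setting and the treatment of multiply mapping reads are not given in the sources used here.

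Counts were tested in R 4.3.3 with edgeR 4.0.16, by the quasi-likelihood test on TMM-normalized counts, with genes filtered by filterByExpr (minimum count 10, minimum total 15) and p-values adjusted over all genes tested by the Benjamini-Hochberg method. A call is an adjusted p below 0.01, and a second rule adds a fold of more than 2. Each RA comparison used the 6 libraries of its time point, and each comparison with day 2 used its own 6 libraries. An interaction term tested differences between times. The comparisons of 18 h and 54 h and of 54 h and 78 h and the omission of 30 h were added after the data were seen. Standard errors were taken from the fold change and the F statistic. Levels are CPM scaled by TMM over all 45 libraries.

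Library totals were 17298632 to 39688686 counts, and a count of 0 would allow up to 3 counts, a floor for counting error only. Labels call the replicates biological without naming cultures, so p-values measure the spread between these libraries. All replicate pairs differed by more than sampling noise. The same replicate numbers occur in every group. Deviations of same-numbered libraries correlated above 0.1 for every pair at 66 h only, where the lowest correlation was 0.21, so that the pairing there comes from the data and not from the labels.

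On simulated counts for RA at 54 h, edgeR recovered 80% of 100 genes changed by 0.5 and 100% of 100 genes changed by 1 on the log2 scale, among 16386 genes, with 5 false calls, and DESeq2 1.42.0 recovered 73% and 95% among 30046 genes. For the interaction of 54 h and 78 h edgeR recovered 37% and 97%, among 17273 genes. The simulation gave every gene the same dispersion of 0.005 and changed only well-counted genes, so that recovery in the real libraries can differ from these values.

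All 30 genes are named. From each of 6 further lists at most 3 genes are named, those with the largest fold among calls of more than 2-fold at a mean of at least 1 CPM. The genes, lists and tests were chosen with earlier results of these data known. The counts of genes called and the 77 called pairs of gene and time with RA were recomputed with DESeq2, with scaling by RLE or by library totals, without the filter, in 1 fit of all 45 libraries, with the replicate number as a block, under the 2-fold limit (interactions excepted) and without each library in turn. Shares of all genes called were computed for the main fits only, so that counts from the refits stand without one. Promoter sequences are those of RefSeq, and some genes of these pathways are not reported here.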

Additional observations from a re-analysis of the deposited data

Results flagged for a closer look

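The effect of RA on a gene differed between times, by an interaction term at an adjusted p below 0.01 in edgeR, in 36 pairs of gene and comparison of times. Values are the log2 fold change of RA over untreated at the later time minus that at the earlier time, with 3 libraries in each of 4 groups. Groups of 3 libraries were not searched for single libraries far from the others.

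From 18 h to 54 h the effect moved down in 13 genes and up in 1, and it differed for 23.3% of all genes tested. In the mevalonate arm it moved by -0.49 for Hmgcs1, -0.52 for Pmvk and -0.50 for Fdps. In the squalene and sterol arm it moved by -0.51 for Fdft1, -0.65 for Lss, -0.61 for Msmo1 and -0.52 for Sc5d. Of the control and transport genes, Insig1 moved by -0.45, Insig2 by -0.54 and Stard4 by -0.40, whereas Scap moved up by 0.36. The desaturases moved most, with -0.72 for Scd1 and -0.74 for Scd2, and Elovl6 moved by -0.47.

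From 54 h to 78 h all 15 moved up, and the effect differed for 6.84% of all genes tested. Series and time nearly coincide between these times. The values were 0.62 for Acat2, 0.65 for Hmgcs1, 0.54 for Idi1 and 0.56 for Fdps in the mevalonate arm. Squalene and sterol genes moved by 0.65 for Fdft1, 0.52 for Sqle, 0.62 for Lss, 0.66 for Cyp51, 0.60 for Msmo1 and 0.53 for Hsd17b7. Insig1 moved by 0.63 and Stard4 by 0.46, and the fatty acid genes Scd1, Scd2 and Elovl6 by 0.74, 0.62 and 0.65. Both of these comparisons were chosen after the data were seen, and both use the libraries of 54 h.

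From 18 h to 78 h the effect differed for 7 of the 30 genes, beside 27.9% of all genes tested, so that their number does not stand out. Series and time cannot be told apart between these times. The effect moved up by 0.36 for Acat2, 0.30 for Sqle, 0.55 for Cyp51 and 0.38 for Hsd17b7. It moved by -0.33 for Tm7sf2, -0.34 for Sc5d and -0.59 for Insig2.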

How the results depend on the processing

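None of the 77 called pairs of gene and time with RA changed sign under any alternative run. Of 179 counts of genes recomputed under another scaling, filter, model or threshold, 130 stayed within 1.5 times the value reported and 49 did not. Of 539 values for these pairs, 402 kept their call and 137 lost it. The lost calls include all 77 under the 2-fold limit, which was settled beforehand because no called pair passed 2-fold. With 1 library left out, 353 of 462 values kept their call and 109 lost it. With the 2-fold limit every count of genes changed by RA was 0, and against day 2 the remaining counts were 1 gene higher in untreated organoids at 78 h, 1 higher with RA at 18 h and 2 higher with RA at 78 h, with 0 lower.

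In 1 fit of all 45 libraries, RA gave 1 gene higher and 3 lower at 8 h, 2 higher and 3 lower at 18 h, 5 higher and 11 lower at 30 h, 5 lower at 66 h, and 2 higher and 1 lower at 78 h. Against day 2, 0 genes were lower without RA and 1 with RA at 18 h, and the effect differed between 18 h and 78 h for 3 genes. With library totals the count was 1 lower at 18 h, 2 higher and 1 lower at 30 h, and 2 higher at 66 h, so that 18 h went from 8 lower and 6 higher to 1 lower and 7 higher, and against day 2 it was 0 lower without RA and 1 lower with RA at 18 h and 5 lower with RA at 78 h. DESeq2 gave 2 higher and 6 lower at 30 h, 1 higher at 66 h and 2 lower in untreated organoids at 18 h against day 2. With no filter the counts were 1 higher at 30 h, 2 higher at 66 h and 2 lower in untreated organoids at 18 h against day 2. The cause was not tested.

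With the replicate number as a block, 3 genes were higher and 2 lower at 18 h, 3 higher at 66 h, 5 lower at 78 h and 0 lower in untreated organoids at 18 h against day 2, and no other count moved by more than 1.5 times. Outside 66 h the libraries share only a number, with lowest correlations of -0.39 to 0.09 between same-numbered libraries.

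With 1 library left out, 182 of 210 counts stayed within 1.5 times. RA gave 0 to 3 lower genes at 8 h, 3 to 6 higher and 2 to 7 lower at 18 h, 0 to 4 higher and 0 to 16 lower at 30 h, 17 to 22 lower at 42 h, 16 to 21 lower at 54 h, 0 to 2 higher and 6 to 12 lower at 66 h, and 2 to 6 higher and 1 to 3 lower at 78 h. Against day 2 the ranges were 15 to 21 higher and 0 lower without RA and 11 to 14 higher and 2 to 3 lower with RA at 18 h, and 9 to 13 higher and 6 to 7 lower without RA and 11 to 14 higher and 8 to 10 lower with RA at 78 h. The effect differed among the 7 times for 17 to 25 genes, and between 18 h and 78 h for 5 to 7, 18 h and 54 h for 12 to 15 and 54 h and 78 h for 12 to 16. Each of the 30 genes had at least 292 counts in every library.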
